A study of Mus musculus with 27 samples.

Results

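Knockdown of LSD1 was set against knockdown of STAT5A or STAT5B in Ba/F3 cells stimulated with interleukin 3 (IL3), the cytokine that this murine cell line, labelled as pro-B, needs to grow. The comparison used 9 of the 27 RNA sequencing libraries of the study, chosen by their labels: 3 with a hairpin against LSD1, and 3 each with a hairpin against STAT5A or STAT5B, which were pooled into an arm of 6. It asks what is particular to loss of LSD1 among knockdowns aimed at the response to IL3. Cells received a short hairpin from a lentivirus and stayed under puromycin for at least 1 week. All 9 cultures had been kept in medium with 1 ng/mL IL3, were deprived of IL3 for 6 h and then received 10 ng/mL IL3 for 30 min. The 5 libraries with a no-target hairpin, the 3 with a hairpin against HDAC3 and the 5 of stimulated wild-type cells had the same IL3 schedule and serve for reference, while a further 5 wild-type libraries were only deprived. The labels call libraries of a group biological replicates but do not say whether the cultures were transduced separately, so the p-values measure the spread between these libraries. The hairpin sequences and the number of hairpins per target are not in the labels.

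LSD1, encoded by Kdm1a, removes methyl groups from lysine 4 of histone H3 and works inside the CoREST co-repressor complex. It has no sequence preference of its own and is brought to DNA by transcription factors, among them GFI1 and GFI1B, whose short N-terminal SNAG domain binds its active site. STAT5A and STAT5B are transcription factors that the IL3 receptor activates through JAK2 and that switch on feedback inhibitors, survival kinases and growth genes.

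Each arm showed the loss its hairpin was made for. Levels are given as CPM, the reads of a gene relative to all reads counted in genes, scaled between libraries. Kdm1a (GRCm38, GENCODE vM21, chr4:136550540-136602723, minus strand, protein-coding) stood at 73.0, 55.4 and 103 CPM in LSD1 replicates 1, 2 and 3. In the STAT5 arm the lowest, median and highest values were 129, 142 and 161 CPM. The arms did not overlap, and LSD1 replicate 2 had the least Kdm1a and replicate 3 the most, at 38.1% and 70.6% of the no-target mean. Kdm1a overlaps Luzp1 on the opposite strand over 4241 bases, where reads cannot be told apart. Kdm1a was lower in the LSD1 arm (log2 fold change -0.88, SE 0.13, adjusted p = 0.000944, edgeR quasi-likelihood test with Benjamini-Hochberg adjustment over all genes tested). Stat5a stood at 26.7, 27.5 and 23.7 CPM in the STAT5A libraries and at 61.7, 89.8 and 75.0 in the STAT5B libraries. Stat5b stood at 87.9, 89.6 and 87.5 CPM in the STAT5A and at 33.7, 29.3 and 36.0 in the STAT5B libraries. Stat5a in the STAT5B libraries lay within the no-target range of 50.5 to 92.0 CPM. Stat5b in all 3 STAT5A libraries lay somewhat below the no-target range of 95.3 to 134 CPM. Each STAT5 hairpin thus lowered mainly its own target. Against the pooled arm, whose spread is widened by this, neither gene passed the test (Stat5a 0.56, adjusted p = 0.449; Stat5b 0.76, adjusted p = 0.309), and both passed when the arm was fitted with separate means (0.76, adjusted p = 0.0483 and 0.93, adjusted p = 0.00178). Between the STAT5A and STAT5B knockdowns 3 genes differed (0.0248%), Stat5b and Vps26b being higher with STAT5A knockdown (0.0166%) and Stat5a lower (0.00828%).

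The libraries differed in more than their hairpins. Counted reads ranged from 5.54 to 21.4 M in the LSD1 and from 8.53 to 22.6 M in the STAT5 arm. LSD1 replicate 1 was the shallowest of the 9, and 25.1% of its reads fell in no gene, against 8.82 to 12.1% in the STAT5 arm; it shares this with 4 libraries outside the comparison (HDAC3 replicates 1 and 2, no-target replicates 1 and 3). STAT5A replicate 3 and STAT5B replicate 2 had few multi-mapped reads. Of the B-lineage markers, Cd79a (26.9 to 70.8 CPM over the LSD1 libraries) and Cd79b (19.3 to 44.9 CPM) were present, and Pax5, Ebf1, Vpreb1, Igll1 and Rag1 stayed under 1 CPM in every stimulated arm. In the 9 libraries the eosinophil granule genes Epx and Prg2, the peroxidase gene Mpo of granulocyte precursors and the erythroid and mast cell factor gene Gata1 were all above 23 CPM, so the label pro-B is carried by few of its defining genes here. In such bulk libraries, fewer cells of a type and less RNA per cell cannot be told apart.

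Gfi1b, the gene of an LSD1 recruiter, differed between the arms, together with a small group of genes that were low in the other libraries and a pair that were low in the STAT5 arm. Of 12073 genes tested, 15 differed (0.124%), 11 of them higher (0.0911%) and 4 lower (0.0331%) with LSD1 knockdown. At an unadjusted p under 0.05 there were 1414 genes (11.7%), 910 higher and 504 lower. Without LSD1 replicate 1 the count was 12, without replicate 2 it was 5, and without replicate 3, which had the most Kdm1a left, it was 115 (92 higher, 23 lower), with 14 of the 15 genes among them. Without the 5 hairpin libraries rich in reads outside genes it was 23, including 11 of the 15. That rule was added after seeing the data. Under the planned rule, which also leaves out STAT5B replicate 1, Mc1r, Tmem59, Tnip1, C030013G03Rik and Slc29a1 of the 15 lost their call. Fitted on the 9 libraries alone, in place of all 27, only Gfi1b passed (2.92, adjusted p = 0.0126).

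**Figure D1:**
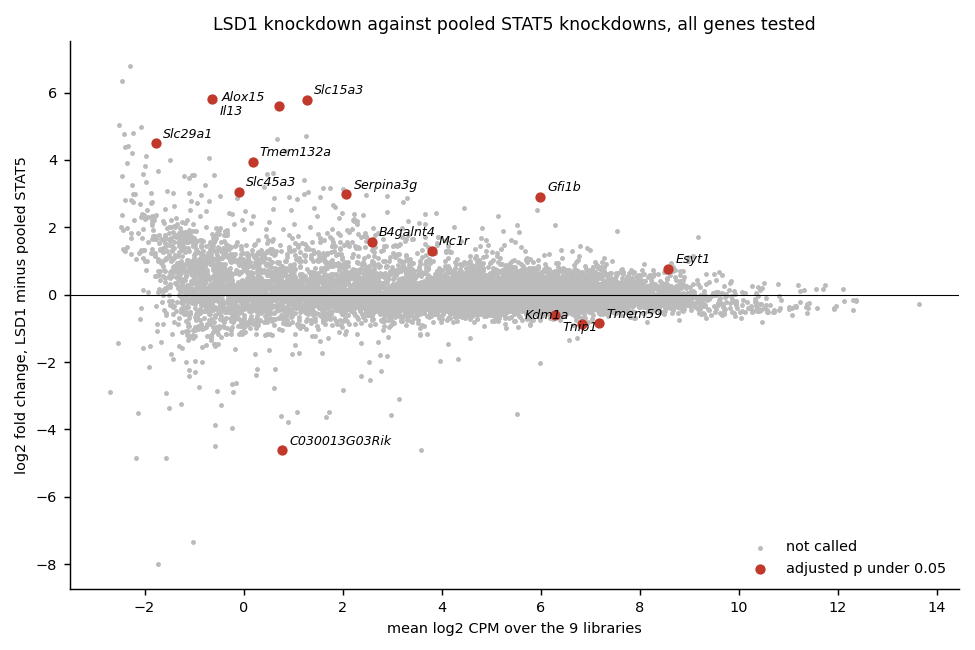
Log2 fold change (LSD1 minus pooled STAT5, y axis) against mean log2 CPM over the 9 libraries (x axis) for the 12073 genes tested; red points passed at an adjusted p under 0.05. Of the 15 red points, 11 lie above 0, and Gfi1b stands apart among genes of its level.

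Gfi1b (chr2:28609450-28621982, minus strand, protein-coding) encodes a zinc finger repressor of blood cell precursors that carries the SNAG domain and is known to repress its own gene. It stood at 176, 445 and 154 CPM in LSD1 replicates 1, 2 and 3. It stood at 25.8, 27.3 and 30.2 CPM in the STAT5A libraries and at 33.4, 47.5 and 41.9 CPM in the STAT5B libraries. Every LSD1 library thus lay above every STAT5 library, replicate 2 farthest. The log2 fold change was 2.91 (SE 0.35, adjusted p = 3.71e-05), and was 3.22 against STAT5A alone (adjusted p = 0.000848) and 2.66 against STAT5B alone (adjusted p = 0.00389), where the same LSD1 libraries are used. The no-target libraries held 21.9 to 69.1 CPM and the HDAC3 libraries 16.9 to 21.8 CPM, so the STAT5 arm lay within the no-target range (pooled STAT5 against no-target -0.09, adjusted p = 0.889). Gfi1b is also a gene that IL3 lowers: it fell from 124 to 157 CPM in deprived wild-type cells to 36.6 to 120 CPM after stimulation (-1.32, adjusted p = 0.0177), and the LSD1 libraries, although stimulated, stood at or above the deprived level. The change kept its call without each of the 9 libraries in turn, with log2 fold changes from 2.25 (without LSD1 replicate 2) to 3.16. Its paralog Gfi1 was at most at 0.803 CPM in any library and was not tested.

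The promoter of Gfi1b is shown because GFI1B binds DNA through the core AATC and the gene carries a cluster of it. The window runs from 250 bases before to 50 after the start that RefSeq lists (GRCm38.p6, chr2:28621933-28622232, minus strand), and capitals mark AATC on either strand, so that GATT is AATC on the opposite strand.
Gfi1b promoter: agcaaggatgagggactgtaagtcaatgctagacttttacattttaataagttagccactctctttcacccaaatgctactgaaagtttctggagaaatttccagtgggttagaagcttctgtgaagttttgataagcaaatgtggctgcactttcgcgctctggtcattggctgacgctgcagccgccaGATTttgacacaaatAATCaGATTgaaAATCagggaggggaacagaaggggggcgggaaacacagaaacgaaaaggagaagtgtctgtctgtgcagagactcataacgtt
The 4 copies begin 60, 45, 40 and 33 bases before the start. Of 32851 RefSeq promoters of the same length, 73.1% hold at least 1 AATC and 10.1% hold 4 or more. The longer form AATCNNNGC, found in 10.3% of promoters, is not in this window. A TTCNNNGAA, the motif that STAT5 binds, begins 133 bases before the start, and 8.30% of promoters hold one. These are matches of letters and no measure of binding.

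Slc15a3 and Alox15 were raised by far more, from almost nothing. Slc15a3 (chr19:10839727-10859362, plus strand), which encodes a transporter of histidine and small peptides in endosomes and lysosomes, stood at 16.0, 122 and 3.94 CPM in LSD1 replicates 1, 2 and 3. It stood at a lowest of 0.240, a median of 0.839 and a highest of 1.72 CPM in the STAT5 arm. The arms did not overlap, and the LSD1 libraries also lay far from each other. The log2 fold change was 5.80 (SE 0.67, adjusted p = 3.21e-05), and without LSD1 replicate 2 it was 3.50 (adjusted p = 0.00755). Tmem132a (chr19:10857822-10869940, minus strand), a membrane protein gene, followed the same order, with 4.41, 15.7 and 1.28 CPM in the LSD1 libraries. The STAT5 arm held 0.117 to 0.671 CPM with a median of 0.488, again with no overlap (3.95, SE 0.48, adjusted p = 3.71e-05). Without LSD1 replicate 2 the change was 2.53 (adjusted p = 0.0154). Slc15a3 and Tmem132a overlap by 1541 bases on opposite strands, and the kit used does not keep the strand, so reads in that stretch cannot be told apart.

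Alox15 (chr11:70344152-70352031, minus strand), which encodes a lipoxygenase of arachidonic acid found in eosinophils and macrophages, stood at 16.0, 96.6 and 1.38 CPM in LSD1 replicates 1, 2 and 3. In the STAT5A libraries it stood at 0.651, 1.01 and 2.36 CPM and in the STAT5B libraries at 0.0586, 0.0550 and 0.360 CPM. LSD1 replicate 3 lay below STAT5A replicate 3, so the arms overlapped there. The log2 fold change was 5.60 (SE 0.85, adjusted p = 0.00104), and it did not pass without LSD1 replicate 2 (3.42, adjusted p = 0.144). Against STAT5B alone it was 8.20 (adjusted p = 0.00153) and against STAT5A alone 4.79 (adjusted p = 0.0560). Slc45a3 (chr1:131962967-131982969, plus strand), which encodes a member of a family of membrane transporters, stood at 3.10, 6.34 and 1.24 CPM against 0.118 to 0.703 CPM in the STAT5 arm (3.05, SE 0.44, adjusted p = 0.000567). Its groups did not overlap, but it did not pass without LSD1 replicate 2 (2.27, adjusted p = 0.0811).

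Il13, the gene of a type 2 cytokine made by mast cells, basophils and T helper cells, was high in LSD1 replicate 2 alone. Il13 (chr11:53631324-53634702, minus strand) stood at 0.817, 42.2 and 0.275 CPM in LSD1 replicates 1, 2 and 3. The STAT5 arm held 0 to 0.600 CPM with a median of 0.231, so replicate 1 was just above that range and replicate 3 within it. The log2 fold change of 5.82 (SE 0.94, adjusted p = 0.00272) rested on replicate 2, without which it was 0.88 (adjusted p = 0.579). The promoter of Il13 is shown beside that of Gfi1b because it too holds several copies of AATC (RefSeq, GRCm38.p6, chr11:53634653-53634952, minus strand, capitals again mark AATC on either strand).
Il13 promoter: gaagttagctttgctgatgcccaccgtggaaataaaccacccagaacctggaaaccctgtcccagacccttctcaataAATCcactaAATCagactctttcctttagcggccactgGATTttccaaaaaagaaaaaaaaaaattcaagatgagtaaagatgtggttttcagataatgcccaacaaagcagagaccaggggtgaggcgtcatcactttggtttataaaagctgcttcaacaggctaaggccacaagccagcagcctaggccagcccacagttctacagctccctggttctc
Its 3 copies begin 172, 163 and 134 bases before the start, and 22.6% of all promoters hold 3 or more. Other named genes hold several copies too. C030013G03Rik, lower with LSD1 knockdown, holds 5 and an AATCNNNGC, and B4galnt4, higher with LSD1 knockdown, holds 3. Cish, Pim2, Egr2 and Stat5b, which were not called, hold 3 in at least 1 of their listed promoters. No promoter was listed for Slc15a3, Tmem132a and Alox15, so their copies were not counted. A relation of the motif to the changes was not tested.

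These genes shared an order among the LSD1 libraries. Gfi1b, Slc15a3, Tmem132a, Alox15, Slc45a3 and Il13 were each highest in replicate 2 and lowest in replicate 3, the libraries with the least and the most Kdm1a. Replicate 1 lay between them for each of these genes and for Kdm1a. Of the other genes called higher, Serpina3g, Esyt1 and Slc29a1 had the same order, and B4galnt4 and Mc1r did not. Cish, which was not called, had it too, so the order was not particular to these 6 genes. With 3 libraries this is a description of them, and a relation to the amount of Kdm1a was not tested. All 6 were also higher in the LSD1 than in the no-target libraries, with log2 fold changes of 2.83 (Gfi1b, adjusted p = 0.000251), 6.40 (Slc15a3, 0.000157), 3.69 (Tmem132a, 0.000515), 8.05 (Alox15, 0.000171), 2.58 (Slc45a3, 0.0126) and 5.61 (Il13, 0.0195). In the whole of that comparison 20 genes differed (0.166%), of which 19 were higher (0.157%) and 1, Kdm1a, was lower (0.00828%). That count was 5 without LSD1 replicate 2, where Gfi1b, Slc15a3 and Alox15 were the 3 of the 6 that passed, 57 without LSD1 replicate 3, and 7 to 9 without no-target replicate 1, 4 or 5, where Il13 was lost. Fitted on the groups compared alone, edgeR called 0 genes (411 at an unadjusted p under 0.05, and DESeq2 called 64 on all libraries). None of the 6 passed when the pooled STAT5 arm was set against the no-target hairpin. That comparison shares the 5 no-target libraries with the preceding one, and it called 17 genes (0.141%), 10 higher (0.0828%) and 7 lower (0.0580%), but 0 when fitted on its own groups (1965 unadjusted, DESeq2 226 on all libraries) and 1 to 67 with 1 library left out.

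**Figure D2:**
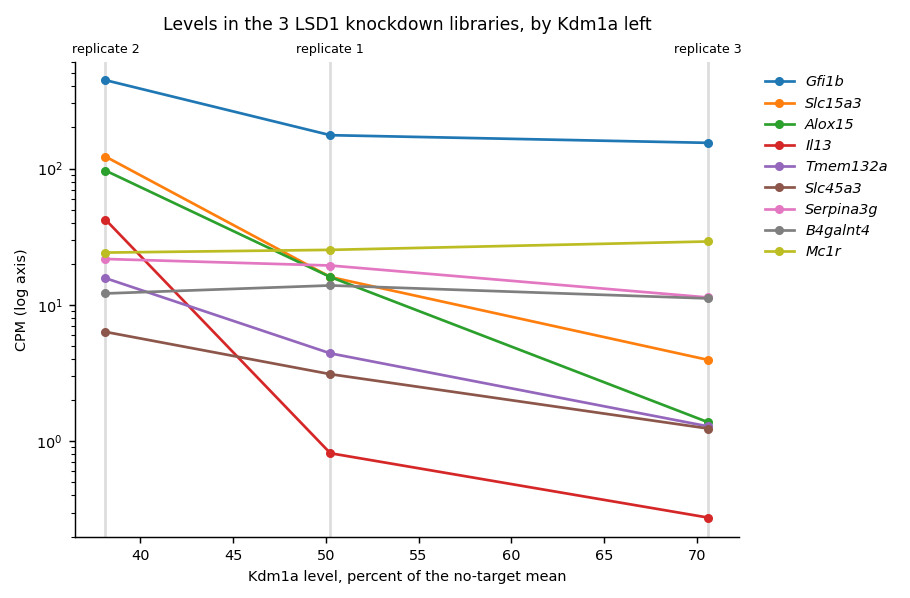
CPM (log axis) of 9 genes higher with LSD1 knockdown in the 3 LSD1 libraries, placed by their Kdm1a level as a percent of the no-target mean (38.1% in replicate 2, 50.2% in replicate 1, 70.6% in replicate 3); lines join the points of a gene. Slc15a3, Alox15, Tmem132a, Slc45a3, Gfi1b, Il13 and, over a smaller span, Serpina3g are highest at the left and lowest at the right, while B4galnt4 and Mc1r are nearly level.

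B4galnt4 and Serpina3g also separated the arms, but here it was the STAT5 arm that differed from the control. B4galnt4 (chr7:141061104-141072400, plus strand), which encodes an enzyme that adds N-acetylgalactosamine to the sugar chains of glycoproteins, stood at 13.9, 12.1 and 11.1 CPM in the LSD1 libraries. It stood at 4.20, 5.11 and 2.98 CPM in the STAT5A and at 4.75, 4.68 and 3.00 CPM in the STAT5B libraries. The arms lay well apart with little spread in either (1.58, SE 0.18, adjusted p = 3.21e-05), and the change kept its call without each of the 9 libraries. The no-target libraries held 8.43 to 14.6 CPM, so B4galnt4 was lower in the STAT5 arm than there (-1.47, adjusted p = 1.99e-05), and the LSD1 libraries did not differ from them detectably (0.11, adjusted p = 0.999). In wild-type cells its change with IL3 did not pass the threshold (-0.15, adjusted p = 0.745, or -0.14, adjusted p = 0.313 with same-numbered libraries paired).

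Serpina3g (chr12:104236245-104241939, plus strand), a serpin that inhibits cathepsins in the cytosol, was the only one of the 217 IL3-induced genes to differ between the arms. It stood at 19.4, 21.7 and 11.3 CPM in the LSD1 libraries, at 1.90, 2.35 and 1.84 CPM in the STAT5A and at 1.05, 4.51 and 1.44 CPM in the STAT5B libraries. The lowest LSD1 library was above the highest STAT5 library (2.98, SE 0.50, adjusted p = 0.00379), although without LSD1 replicate 2 the adjusted p was 0.0581. Against STAT5A alone (3.11, adjusted p = 0.0824) and STAT5B alone (2.86, adjusted p = 0.0684) it did not pass. Serpina3g rose with IL3 in wild-type cells from 1.19 to 8.61 CPM to 11.3 to 21.5 CPM (2.14, adjusted p = 0.00732). The STAT5 arm was below the no-target range of 6.62 to 21.0 CPM (-2.38, adjusted p = 0.0394) and the LSD1 arm was not (0.60, adjusted p = 0.999). Serpina3g belongs to a cluster of closely related serpin genes, so reads shared with its paralogs make its level uncertain. Its promoter is shown for a single TTCNNNGAA, marked in capitals, that begins 33 bases before the start (RefSeq, GRCm38.p6, chr12:104235897-104236196, plus strand).
Serpina3g promoter: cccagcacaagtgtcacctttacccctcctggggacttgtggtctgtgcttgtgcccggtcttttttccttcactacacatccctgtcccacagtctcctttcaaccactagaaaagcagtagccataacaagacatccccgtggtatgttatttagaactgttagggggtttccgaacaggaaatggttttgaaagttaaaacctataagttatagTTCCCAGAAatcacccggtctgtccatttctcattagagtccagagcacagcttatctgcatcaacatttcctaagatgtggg
The same motif occurs in 8.30% of promoters and was found once or more in those of Cish, Socs3, Tnip1 and Gfi1b among the 24 of 34 named genes with a listed promoter.

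Set against each STAT5 knockdown by itself, with the same LSD1 libraries, 8 genes differed from STAT5A (0.0663%, 6 higher, 0.0497%, and 2 lower, 0.0166%) and 24 from STAT5B (0.199%, 19 higher, 0.157%, and 5 lower, 0.0414%). Gfi1b, Slc15a3, Tmem132a, Slc45a3, B4galnt4 and Kdm1a passed in both.

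The other genes that differed did so by less, or at low levels, and none differed from the no-target hairpin in either arm. Mc1r (chr8:123407107-123410744, plus strand), the receptor gene for melanocortin peptides, stood at 25.3, 24.2 and 29.2 CPM with LSD1 knockdown and at 6.72 to 16.6 CPM (median 9.47) in the STAT5 arm. The no-target libraries lay between and beside them at 12.8 to 21.3 CPM. The log2 fold change was 1.30 (SE 0.25, adjusted p = 0.0240), and it held without 4 of the 9 libraries in turn. Esyt1 (chr10:128509965-128525871, minus strand), whose protein tethers the endoplasmic reticulum to the plasma membrane, stood at 476, 735 and 448 CPM against 273 to 369 CPM (0.77, SE 0.16, adjusted p = 0.0496), and passed without 2 of the 9 libraries in turn. Slc29a1, a carrier of nucleosides across membranes, was near the limit of detection, at 1.63, 1.79 and 0.138 CPM against 0 to 0.110 CPM (4.50, SE 0.88, adjusted p = 0.0265), and passed without 3 of the 9 libraries in turn. It was outside the rule for naming genes, as were Slc45a3 and C030013G03Rik, and these 3 are named because they complete the 15.

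Beside Kdm1a, 3 genes were lower with LSD1 knockdown. Tmem59 (chr4:107178399-107200996, plus strand), a membrane protein gene, stood at 85.6, 78.5 and 133 CPM against 148 to 225 CPM (median 174) in the STAT5 arm, with no overlap (-0.85, SE 0.16, adjusted p = 0.0137). Tnip1 (chr11:54910785-54962917, minus strand), whose protein works with A20 to restrain NF-kB, stood at 51.0, 53.9 and 73.5 CPM against 82.1 to 105 CPM (-0.60, SE 0.12, adjusted p = 0.0487). In both genes replicate 3 lay nearest to the STAT5 libraries. Tnip1 passed without 3 and Tmem59 without 7 of the 9 libraries in turn. The transcript C030013G03Rik, for which the annotation gave no position, was at 0.327, 0.482 and 0 CPM with LSD1 knockdown and at 11.9, 12.2 and 0.661 CPM with STAT5A and 5.74, 0.881 and 4.80 CPM with STAT5B knockdown (-4.62, SE 0.96, adjusted p = 0.0496), and it passed without 3 of the 9 libraries in turn. The STAT5 libraries with the 2 lowest values of it were those with few multi-mapped reads, whose part in the result was not tested.

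**Figure D3:**
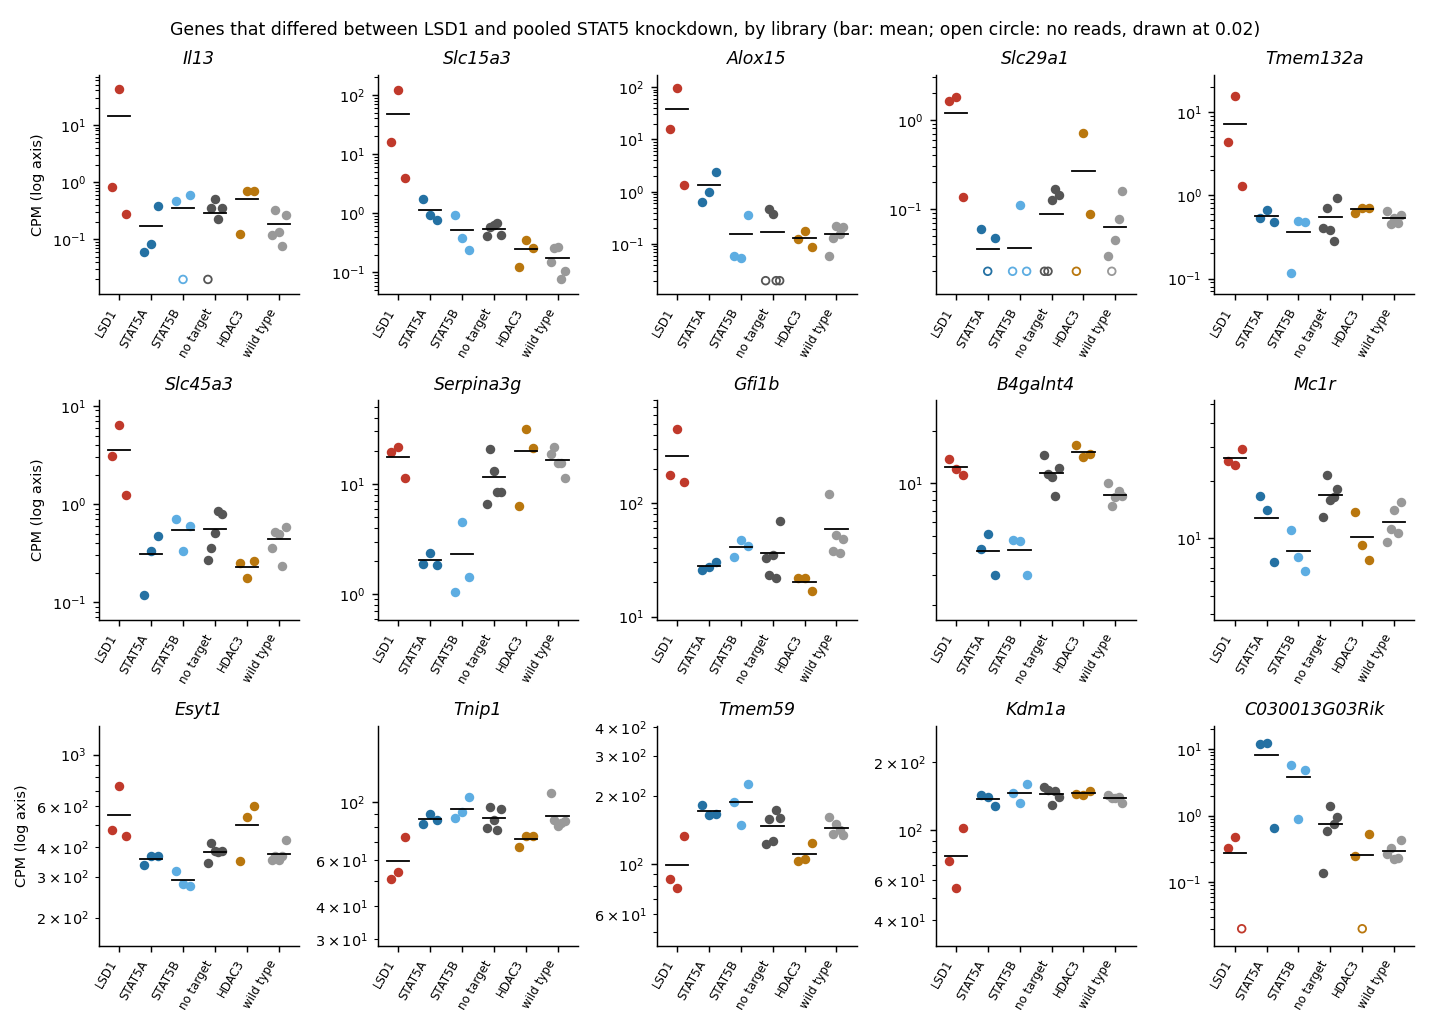
CPM (log axis) per library of the 15 genes that differed between the arms, in the 6 IL3-stimulated groups; points are libraries, bars group means, open circles libraries with no reads. The LSD1 points (red) span widely for Il13, Slc15a3, Alox15, Slc29a1 and Tmem132a, while for B4galnt4 and Serpina3g the STAT5A (dark blue) and STAT5B (light blue) points lie below every other group.

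Genes of the IL3 response as a whole differed little between the arms. IL3 changed 461 genes in wild-type cells (3.82%), 362 of them upward (3.00%) and 99 downward (0.820%), or 2504 when same-numbered libraries were paired, and 217 of the 461 rose and 41 fell by at least 2-fold. The sets used here are those of the unpaired fit. Over the 217 IL3-induced genes the median log2 fold change between LSD1 and STAT5 knockdown was -0.11, with 85 positive and 132 negative values, beside -0.01 over all genes tested. It ran from -0.21 without LSD1 replicate 2 and -0.17 without replicate 1 to -0.04 without replicate 3. It was 0.023 over the 82 genes induced at least 4-fold, of which 43 were positive, so the sign of this small difference depended on the set. With sets from the paired fit it was -0.05 over 267 genes, and Serpina3g was again the 1 called. Serpina3g was the 1 member called higher (0.461% of the set) and none was called lower, beside 0.124% called in either direction over all genes tested. At an unadjusted p under 0.05, 17 members were higher and 19 lower, beside 910 and 504 of the 12073 genes tested. The mean log2 CPM of the set was 4.24, 4.23 and 3.91 in LSD1 replicates 1, 2 and 3 and 4.12 to 4.26 in the STAT5 arm. Replicate 3, with the most Kdm1a, had the lowest value of the 9, and the other LSD1 libraries lay within the STAT5 range. The no-target libraries held 4.12 to 4.52 and the deprived wild-type libraries 2.25 to 2.54, so every knockdown library lay far above the deprived cells. The set's median was -0.29 for LSD1 and -0.20 for the pooled STAT5 arm against the no-target hairpin, comparisons that share those 5 controls. Over the 41 IL3-repressed genes the median between the arms was 0.05, and Gfi1b was the 1 member called (2.44%).

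**Figure D4:**
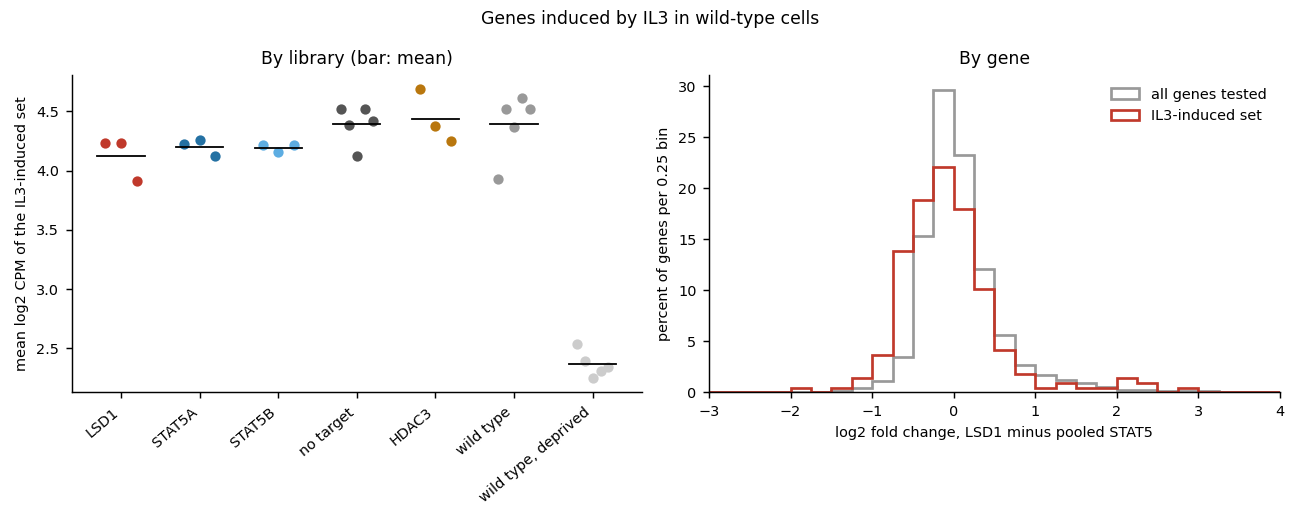
Left, mean log2 CPM of the 217 IL3-induced genes per library (points) with group means (bars); right, the distribution of log2 fold changes between the arms for these genes (red) and all genes tested (grey), in percent of genes per bin, with the tails beyond the axis not drawn. The LSD1 libraries (3.91 to 4.24) overlap the STAT5 libraries (4.12 to 4.26), and the red curve lies slightly to the left of the grey one, with medians of -0.11 and -0.01.

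None of 15 genes listed for the IL3 response passed the test between the arms. Of these, Socs2, Pim2, Bcl2l1 and Ccnd2 did not pass for IL3 in wild-type cells (adjusted p = 0.295, 0.480, 0.569 and 0.676), although with paired libraries all but Ccnd2 did (adjusted p = 0.00973, 0.0196, 0.0466 and 0.0656). The feedback inhibitor gene Cish stood at 328, 713 and 249 CPM with LSD1 knockdown and at 220 to 333 CPM (median 288) in the STAT5 arm (0.61, adjusted p = 0.395). Only replicate 2 was above the STAT5 range, and it lay above the no-target range of 338 to 686 CPM too. Without it the log2 fold change of Cish was 0.02 (adjusted p = 0.971). Of the other inhibitors of cytokine signalling, Socs1 was at 93.2, 192 and 106 CPM against 47.9 to 305, and Socs3 at 83.6, 93.6 and 81.9 CPM against 41.9 to 216. In both genes STAT5B replicate 3 alone was above every LSD1 library, and the other 5 STAT5 libraries were below them. Socs2 had a log2 fold change near 0 (0.02, adjusted p = 0.954).

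Osm, the gene of the cytokine oncostatin M, came closest. It stood at 1697, 955 and 1850 CPM in LSD1 replicates 1, 2 and 3, and at 225, 237 and 435 CPM in the STAT5A and 267, 330 and 1257 CPM in the STAT5B libraries. STAT5B replicate 3 lay inside the LSD1 range and the other 5 far below it (1.71, SE 0.51, adjusted p = 0.231). Without that library the log2 fold change was 2.33 and the adjusted p 0.0185. The no-target libraries spanned 214 to 2306 CPM. Fos, an immediate early gene, stood at 130, 13.3 and 310 CPM with LSD1 knockdown against 19.7 to 73.6 CPM (1.87, SE 0.81, adjusted p = 0.383), so the LSD1 libraries lay on both sides of the STAT5 arm. Without LSD1 replicate 3 the log2 fold change of Fos was 0.73 (adjusted p = 0.638).

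The survival kinase gene Pim1 was at 522, 343 and 304 CPM against 201 to 384 CPM (0.55, adjusted p = 0.441), and Pim2 at 5.72, 13.3 and 10.5 CPM against 11.4 to 21.8 CPM (-0.64, adjusted p = 0.395). Among growth and survival genes, Myc (0.14), Mcl1 (-0.03), Bcl2l1 (-0.10) and Ccnd2 (-0.16) had log2 fold changes near 0, each with an adjusted p of at least 0.806. Id1, an inhibitor of helix-loop-helix factors, was at 159, 144 and 163 CPM, inside the STAT5 range of 131 to 326 CPM (-0.59, adjusted p = 0.417). The early growth response genes Egr1 (0.53, adjusted p = 0.617) and Egr2 (0.62, adjusted p = 0.553) also overlapped between the arms. A p above the threshold does not show that these genes were alike: with an SE of 0.51 for Osm or 0.58 for Socs3, only large changes could have passed.

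**Figure D5:**
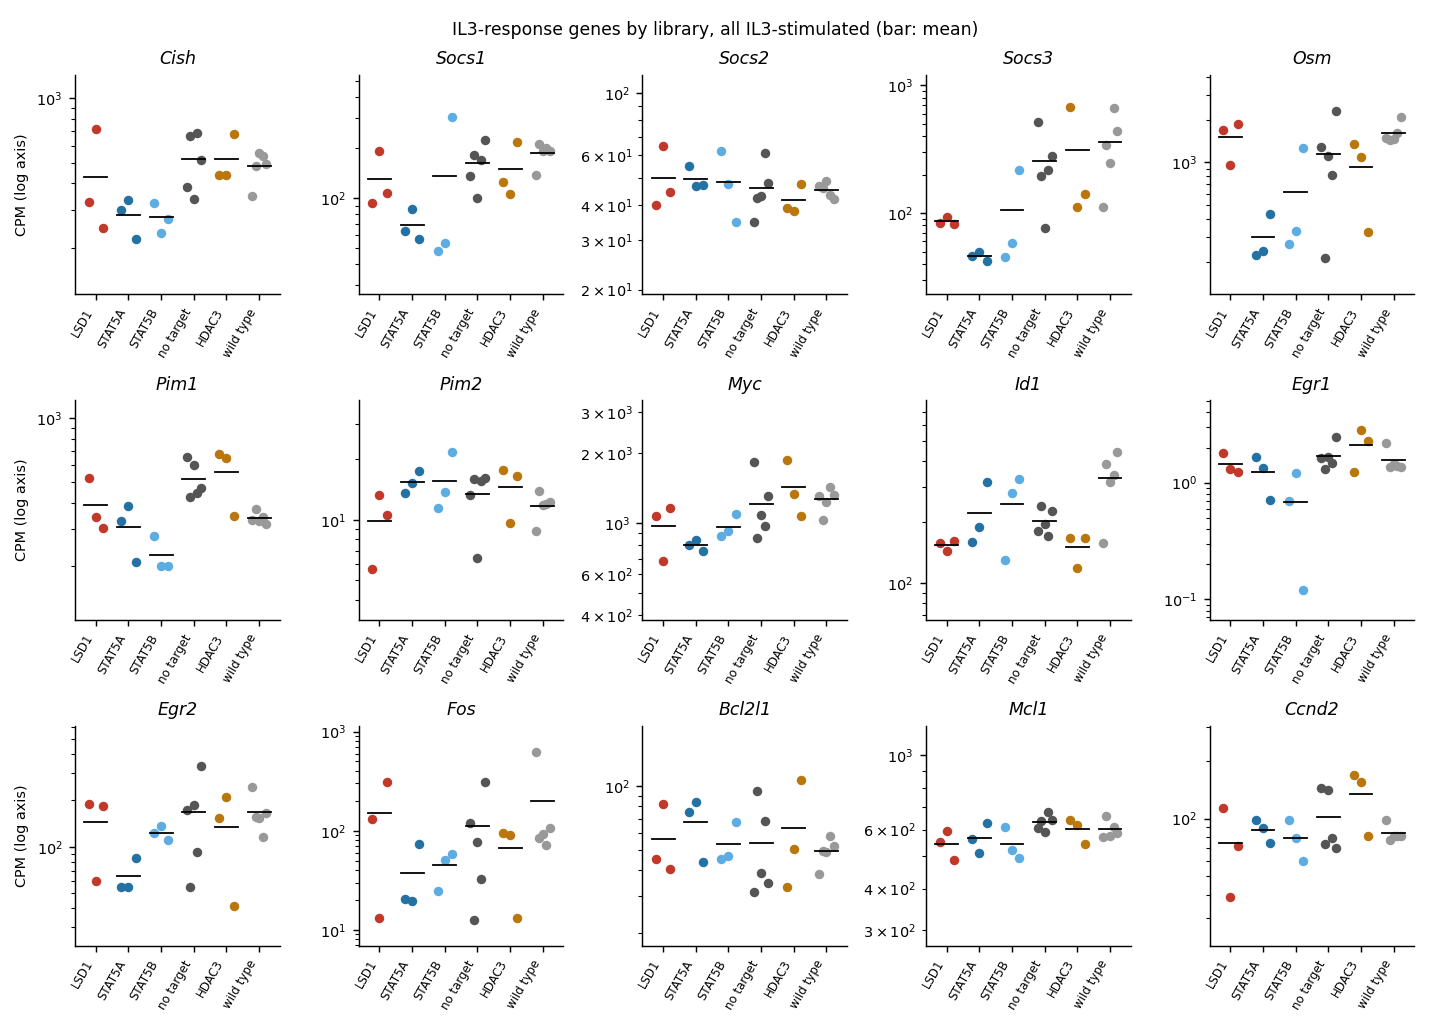
CPM (log axis) per library of the 15 genes listed for the IL3 response in the 6 IL3-stimulated groups, with group means as bars. The LSD1 (red) and STAT5 (blue) libraries overlap in each panel; for Osm and Socs3 a lone STAT5B library stands above the other 5 STAT5 libraries.

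The remaining gene lists give the setting in which these genes moved. Over all genes tested 0.124% were called and 49.2% of the values were positive. Among the 15 measured genes of the LSD1-CoREST complex only Kdm1a, the target of the hairpin itself, was called (6.67%, 1 lower), and the median was 0.09. Of 18 recruiters of LSD1, 6 were expressed enough to be tested, and Gfi1b was the 1 called. Of 21 tested mast cell and basophil markers 17 had positive values with a median of 0.60, and Il13 was called; the median was -0.02, with 10 of 21 positive, without LSD1 replicate 2. Of 8 eosinophil markers 6 were positive with a median of 1.15, and Alox15 was called; without LSD1 replicate 2 the median was -0.21. Epx, the eosinophil peroxidase gene, stood at 730, 1753 and 769 CPM with LSD1 knockdown and at 234 to 1247 CPM in the STAT5 arm, while Prg2, a granule protein gene, stood at 246, 1857 and 247 CPM against 608 to 2303 CPM. The no-target libraries held 46.1 to 540 CPM of Epx and 46.6 to 496 CPM of Prg2. Neither gene passed the test between the arms (1.14, adjusted p = 0.519 and -0.41, adjusted p = 0.809). The summed level of the 6 mast cell and basophil markers was 100 to 727 CPM in the LSD1 and 52.2 to 255 CPM in the STAT5 arm, with Kit and Fcer1a, which define mast cells, under 1 CPM in both; the part of such cells in the results was not tested.

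No member was called in the lists of STAT5 targets (26 tested, median 0.18), immediate early genes (42, -0.08), myeloid markers (33, -0.10), erythroid markers (14, 0.25), T-cell markers (8, 0.61), B-lineage markers (9, 0.28) or cytotoxic granule genes (8, -0.72). The same held for S phase genes (41, 0.01), mitosis genes (30, 0.04), p53 targets (22, 0.07), interferon response genes (44, -0.11), cholesterol synthesis genes (25, -0.16), glycolysis genes (27, -0.13), ribosome biogenesis genes (38, -0.13), lysosome genes (33, -0.14), adhesion genes (23, 0.28), polycomb and H3K4 genes (33, 0.12) and REST-type neuronal genes (13, 0.35). Of 78 ribosomal protein genes 74 had negative values (median -0.38), and of 82 oxidative phosphorylation genes 77 (median -0.22), with none called in either list. Without LSD1 replicate 1 the medians were -0.12 and 0.03, with 57 of 78 and 33 of 82 values negative. The shift of the ribosomal protein genes was thus smaller but remained, while that of the oxidative phosphorylation genes did not. Against the no-target hairpin the ribosomal protein median was 0.12 for LSD1 and 0.45 for the pooled STAT5 arm. The oxidative phosphorylation median was 0.05 for LSD1 and 0.25 for the pooled STAT5 arm. The cause of these shifts was not tested.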

How the data were processed

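Counts of reads per gene, as deposited by the authors for each of 27 libraries, were used (24000 genes after dropping the 5 summary rows). Per the submitters' processing notes the tools were Trimmomatic 0.30, TopHat2 2.0.10, HTSeq 0.5.4p5 and DESeq2 1.2, with build mm10; their order, the counting mode and the annotation are not given in the sources used here. The arms came from the labels. All 27 libraries were fitted with edgeR 4.0.16 (limma 3.58.1, R 4.3.3): TMM scaling, filterByExpr, a quasi-likelihood test and Benjamini-Hochberg adjustment over 12073 genes, called at an adjusted p under 0.05. Alternatives were DESeq2 1.42.0, other scaling, filter, thresholds and designs, and leaving out libraries. The planned rule of over 13% of reads outside genes also took STAT5B replicate 1, so a rule on reads in no gene was added after seeing the data, as were IL3 sets from the paired wild-type fit. Members and lists were chosen with earlier results of these data known.

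Genes named were the targets and recruiters, 15 core IL3 genes, up to 12 largest rises and falls with at least 5 CPM in the higher arm and no overlap between the arms, and called list members; called genes outside this rule are marked. Positions are from GENCODE vM21. Depth was 5.48 to 33.8 M counted reads, and a floor of 3 counts covers counting error only. No library was a copy of another: over genes, chi-square divided by its degrees of freedom ran from 9.90 to 155 in 42 replicate pairs. A lower value means that the libraries were more alike. The lowest was that of STAT5A replicates 1 and 2, which stood at 83.4 and 57.9 against STAT5A replicate 3. The most alike pair of stimulated wild-type libraries stood at 12.7. Whether STAT5A replicates 1 and 2 came from separate cultures was not tested, and the p-values count them as separate. Same-numbered libraries deviated together in 5 of 5 pairs of the wild-type groups (r 0.375 to 0.716). They did so in 2 of 3 pairs of LSD1 with STAT5A (r -0.008 to 0.281), with STAT5B (r -0.188 to 0.236) and with no-target (r -0.553 to 0.430). For STAT5A with STAT5B it was 1 of 3 (r -0.258 to 0.515). The numbers thus clearly pair only the wild-type libraries, and 3 pairs are too few to settle this for the knockdown libraries. The code was tested on simulated data. The level of 1 marker gene is not reported here.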

Additional observations from a re-analysis of the deposited data

Results flagged for a closer look

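For each of the 34 named genes the STAT5 arm of 6 and the no-target group of 5 were checked for a library far from the rest. Of these 68 groups 6 had one. The cut-offs give about 1 in 20 by chance for normally distributed values, which CPM values need not be. The 68 checks also share libraries and are not independent, so the 2 rates cannot be compared closely. The LSD1 arm of 3 libraries was not checked in this way. STAT5B replicate 3 stood high in Socs1 (305 CPM, the other 5 STAT5 libraries 47.9 to 85.5), Socs3 (216 CPM, others 41.9 to 58.4) and Osm (1257 CPM, others 225 to 435). STAT5B replicate 2 was high in Serpina3g (4.51 CPM, others 1.05 to 2.35), and STAT5B replicate 1 was low in Tmem132a (0.117 CPM, others 0.472 to 0.671). No-target replicate 5 was high in Gfi1b (69.1 CPM, others 21.9 to 34.8), still below each LSD1 library. The STAT5A and STAT5B arms differed in their own targets, with a log2 difference of -1.54 in Stat5a and 1.42 in Stat5b (STAT5A minus STAT5B).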

How the results depend on the processing

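The number of genes called depended on the test and on which libraries shared the spread, while no called gene turned direction in any alternative. The common class named below leaves out the libraries rich in reads outside genes and also those with few multi-mapped reads. By the planned rule it drops LSD1 replicate 1, STAT5A replicate 3 and STAT5B replicates 1 and 2, so only STAT5B replicate 3 is left of that group. For LSD1 against pooled STAT5 (15 genes) DESeq2 called 59, the 9 libraries alone 1, an adjusted p under 0.01 9, the share of reads outside genes as covariate 24, no library rich in reads in no gene 23, and the common class 1 by the planned rule (C030013G03Rik, with Gfi1b at 3.24 and an adjusted p of 0.149) or 6 by the added rule. In the same order of comparisons, DESeq2 called 19 against STAT5A, 81 against STAT5B, 64 for LSD1 and 226 for STAT5 against no-target, 13 for STAT5A against STAT5B and 698 for IL3. Fitted on the groups compared alone, edgeR called 0 of each of the first 5 of these (369, 466, 411, 1965 and 273 at an unadjusted p under 0.05) and 1170 for IL3. At an adjusted p under 0.01 the counts were 15 against STAT5B, 6 and 1 against no-target, and 252 for IL3; with no filter STAT5 against no-target gave 9. Without the 6 libraries of the planned rule they were 40 against STAT5B, 5 and 2 against no-target, 16 for STAT5A against STAT5B and 904 for IL3. In its common class they were 15 and 500 against STAT5A and STAT5B, 5 and 2 against no-target and 1218 for STAT5A against STAT5B. Without the 5 of the added rule they were 6 and 2 against no-target and 876 for IL3, and in its common class 9 against STAT5B and 1 and 2 against no-target. The cause of these changes was not tested.

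When the replicate number, which does not clearly pair the knockdown libraries, entered as a block, 2 genes passed for LSD1 against pooled STAT5 (Gfi1b 2.80 and Serpina3g 3.06, both adjusted p = 0.0145). The replicate block gave 0 against STAT5B, against no-target for either arm and for STAT5A against STAT5B by edgeR (854, 298, 2250 and 557 unadjusted), and 2504 for IL3 in the paired wild-type libraries.

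Leaving out 1 library at a time gave 5 to 115 genes for LSD1 against pooled STAT5, 3 to 18 against STAT5A, 11 to 76 against STAT5B, 5 to 57 for LSD1 and 1 to 67 for STAT5 against no-target, 2 to 9 for STAT5A against STAT5B and 298 to 596 for IL3. The median of the IL3-induced set was -0.21 to -0.042 with 1 library left out and 0.023 for the 4-fold set. That of the IL3-repressed set was 0.20 in the planned common class, -0.12 for the 4-fold set, which holds 1 gene, and -0.12 to 0.13 with 1 library left out. Among uncalled genes 23 values in 8 genes turned sign: Socs2 -0.015 (no filter), Hdac3 0.047, 0.033, 0.028 and 0.020, Socs1 -0.020, Socs3 -0.24 and -0.016, Mcl1 0.047 and Bcl2l1 0.022 (libraries left out), and Bcl2l1 0.16 (covariate). With 1 library left out the ranges were -0.21 to 0.024 for Hdac3, -0.033 to 1.09 for Socs1, -0.22 to 0.15 for Socs2, -0.11 to 0.017 for Mcl1, -0.50 to 0.064 for Bcl2l1, -0.60 to 0.13 for Ccnd2 and -0.042 to 0.32 for Myc. With 3 LSD1 libraries of unequal Kdm1a loss and 5.54 to 21.4 M reads, small changes and genes near 1 CPM were not resolved.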

Other observations

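Several cytokine and basophil genes that did not pass the test, chosen after their values were seen, were highest in LSD1 replicate 2. Il4, a type 2 cytokine gene like Il13, stood at 0.653, 17.6 and 0.504 CPM in LSD1 replicates 1, 2 and 3 and at 0 to 2.04 CPM in the STAT5 arm (log2 fold change 4.06, adjusted p = 0.109, edgeR). Il6 stood at 239, 474 and 71.6 CPM against 17.0 to 150 CPM (2.07, adjusted p = 0.0896), and Lif at 162, 245 and 43.3 CPM against 13.4 to 97.6 CPM (2.06, adjusted p = 0.0899). In Il6 and Lif LSD1 replicate 3 lay inside the STAT5 range. The no-target libraries held 62.6 to 149 CPM of Il6 and 21.3 to 72.0 CPM of Lif. The HDAC3 libraries held 195, 483 and 265 CPM of Il6 and 34.9, 122 and 54.4 CPM of Lif. The mast cell carboxypeptidase gene Cpa3 stood at 18.6, 390 and 3.99 CPM against 5.64 to 40.1 CPM (2.58, adjusted p = 0.252). The basophil receptor gene Cd200r3 stood at 41.5, 381 and 16.7 CPM against 15.0 to 47.3 CPM (2.35, adjusted p = 0.282). Other mast cell and basophil markers overlapped fully or nearly so between the arms. Mcpt8 stood at 3.27 to 26.7 CPM against 2.43 to 33.9 CPM (-0.10, adjusted p = 0.966). Hdc stood at 77.9 to 286 CPM against 7.38 to 224 CPM (0.85, adjusted p = 0.614).

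Gzmb, the gene of the cytotoxic protease granzyme B, was lower than in the STAT5 arm without passing (-4.60, adjusted p = 0.184). It stood at 0.327, 8.89 and 0.826 CPM with LSD1 knockdown, at 149, 143 and 3.12 CPM with STAT5A and at 27.4, 3.47 and 194 CPM with STAT5B knockdown. The HDAC3 libraries held 169, 866 and 1118 CPM, but the no-target libraries 1.54 to 26.6 CPM (median 3.42). Of the LSD1 libraries replicate 2 lay inside that range and the others below it, and 4 of the 6 STAT5 libraries lay above the no-target range. Rcor1, which encodes CoREST, stood at 97.2, 10.1 and 16.9 CPM in the LSD1 libraries, and the neuronal gene repressor Rest at 42.6, 2.07 and 3.44 CPM. Both were high in LSD1 replicate 1 and in the 4 other libraries rich in reads outside genes, whose part was not tested.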
